A study of Homo sapiens with 12 samples.

Results

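Ribosome footprints on 10 genes of the oxidative stress and iron storage response were followed in HAP1 cells. The genes were NFE2L2, HMOX1, NQO1, SQSTM1, TXNRD1, GCLM, GCLC, SLC7A11, FTH1 and FTL. They were chosen by a fixed list of Ensembl gene identifiers, and all 10 were found among the 19580 genes of the deposited table. All 10 also passed the filter on low values, which left 11510 genes that reached 1 RPKM in 3 or more libraries. RPKM is the number of footprint reads scaled to the length of the transcript and to the total of the library. It is therefore a density per length and a share of the library, and a change in total translation cannot be seen in it. Levels of different genes also depend on the lengths used, from 825 nt (FTH1) to 9645 nt (SLC7A11).

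NFE2L2 encodes NRF2, a transcription factor that the adaptor KEAP1 keeps short-lived by sending it to ubiquitylation. Oxidants and electrophiles modify KEAP1, NRF2 accumulates, and genes that carry an antioxidant response element are transcribed. Ferritin, built from the heavy chain FTH1 and the light chain FTL, stores iron in a safe form. Its mRNAs also carry an iron responsive element near the cap, where iron regulatory proteins block translation when iron is scarce.

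HAP1 is a human cell line with a nearly haploid genome that descends from KBM-7, a leukaemia line, and its genotype is labelled WT. Whether it carries the markers of that lineage was not checked, since the table has no gene symbols. Ribosome profiling counts the mRNA fragments that ribosomes protect from RNase I, here in lysates made with cycloheximide. The study asked how cells sense and clear proteins covalently bound to RNA. The 4 groups held 3 biological replicates each. They were untreated cells, cells given 5 uM 4-thiouridine (4SU) for 18 h, cells irradiated with 6 kJ per square metre UVA and harvested after 30 min, and cells that received both (4SU+UVA). 4SU is a uridine analogue that enters new RNA and crosslinks it to protein under UVA. All groups are one cell line, and no labelled step other than 4SU and UVA separates them. Footprints alone were measured, so mRNA amount and ribosome load per mRNA cannot be told apart, nor can the share of responding cells and the response per cell.

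The sequences below are shown because their letters match elements through which genes of this response are known to be controlled. RefSeq windows (GRCh38.p14, from 250 bases before to 50 bases after an annotated start) were matched by symbol for 7 of the 10 genes. HMOX1, SLC7A11 and FTH1 had no matched window and were not searched. The 7 genes had 11 windows in all. The antioxidant response element core TGACNNNGC, searched on both strands, occurred in 3 of them, 1 at GCLM and 2 at TXNRD1. It was in 13.4% of all 35116 windows. The loop of the iron responsive element, CAGTGN, was searched on the gene's strand in the 50 bases after the start and occurred at FTL, against 6.365% of all windows. The AP-1 site TGANTCA, searched on both strands, was in 0 of the 11 windows and in 7.71% of all windows; its letters can overlap those of the antioxidant element. Capitals mark the matched letters in each 30-base stretch, read 5′ to 3′ on the gene's strand. At GCLM and at the second TXNRD1 window the core lies on the opposite strand, as TGACTAAGC and TGACAAAGC.
GCLM (chr1:93909445-93909474, minus strand): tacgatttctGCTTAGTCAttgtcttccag
TXNRD1, first window (chr12:104215670-104215699, plus strand): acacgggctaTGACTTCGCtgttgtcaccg
TXNRD1, second window (chr12:104286920-104286949, plus strand): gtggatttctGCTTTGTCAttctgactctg
FTL (chr19:48965329-48965358, plus strand): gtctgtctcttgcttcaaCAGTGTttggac
A match describes letters and not binding, and which annotated start these cells use was not measured. Bases outside the windows were not searched, so a window without a match does not show that the gene lacks the element. The first TXNRD1 window held 1 further core match that spans the start.

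Depth was 1899854 to 5832366 reads per library, recovered from the steps of the RPKM values. The 4SU+UVA group held the shallowest library, replicate 2, at 1899854 reads. Pairs of replicates correlated at r of 0.982 to 0.991 over genes, and the 12 pairs gave 1.69 to 5.24 times the chi-square per gene expected from counting, so none looked like a repeated library. The 10 genes rested on 53 reads (GCLC in 4SU+UVA replicate 2) to 2054 reads (TXNRD1 in untreated replicate 3).

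With 4SU+UVA, both ferritin chains rose in footprint density about as a pair and far more than the other 8 genes. On the deposited scale, the density of NFE2L2, SQSTM1 and TXNRD1 fell. These 3 falls held with each library centred on its median, and were lost or turned once a trend on length and abundance was removed. Against untreated cells, 4 of the 10 genes rose (HMOX1, GCLM, FTH1, FTL), 3 fell (NFE2L2, SQSTM1, TXNRD1) and 3 did not pass (NQO1, GCLC, SLC7A11), by limma at adjusted p under 0.05 with n = 3 per group. Over all genes tested 40.6% rose, 18.4% fell and 59% passed in either direction, so 7 of 10 is near the background share and is not by itself a result about these genes. The libraries of the 2 groups did not overlap for 6 of the 10, against 63.7% of all genes. The median log2 change was 0.15 over the 10 genes and 0.23 over all genes. What set the ferritin chains apart was the size of their rise, which 98.97% and 98.7% of all genes did not exceed.

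**Figure D1:**
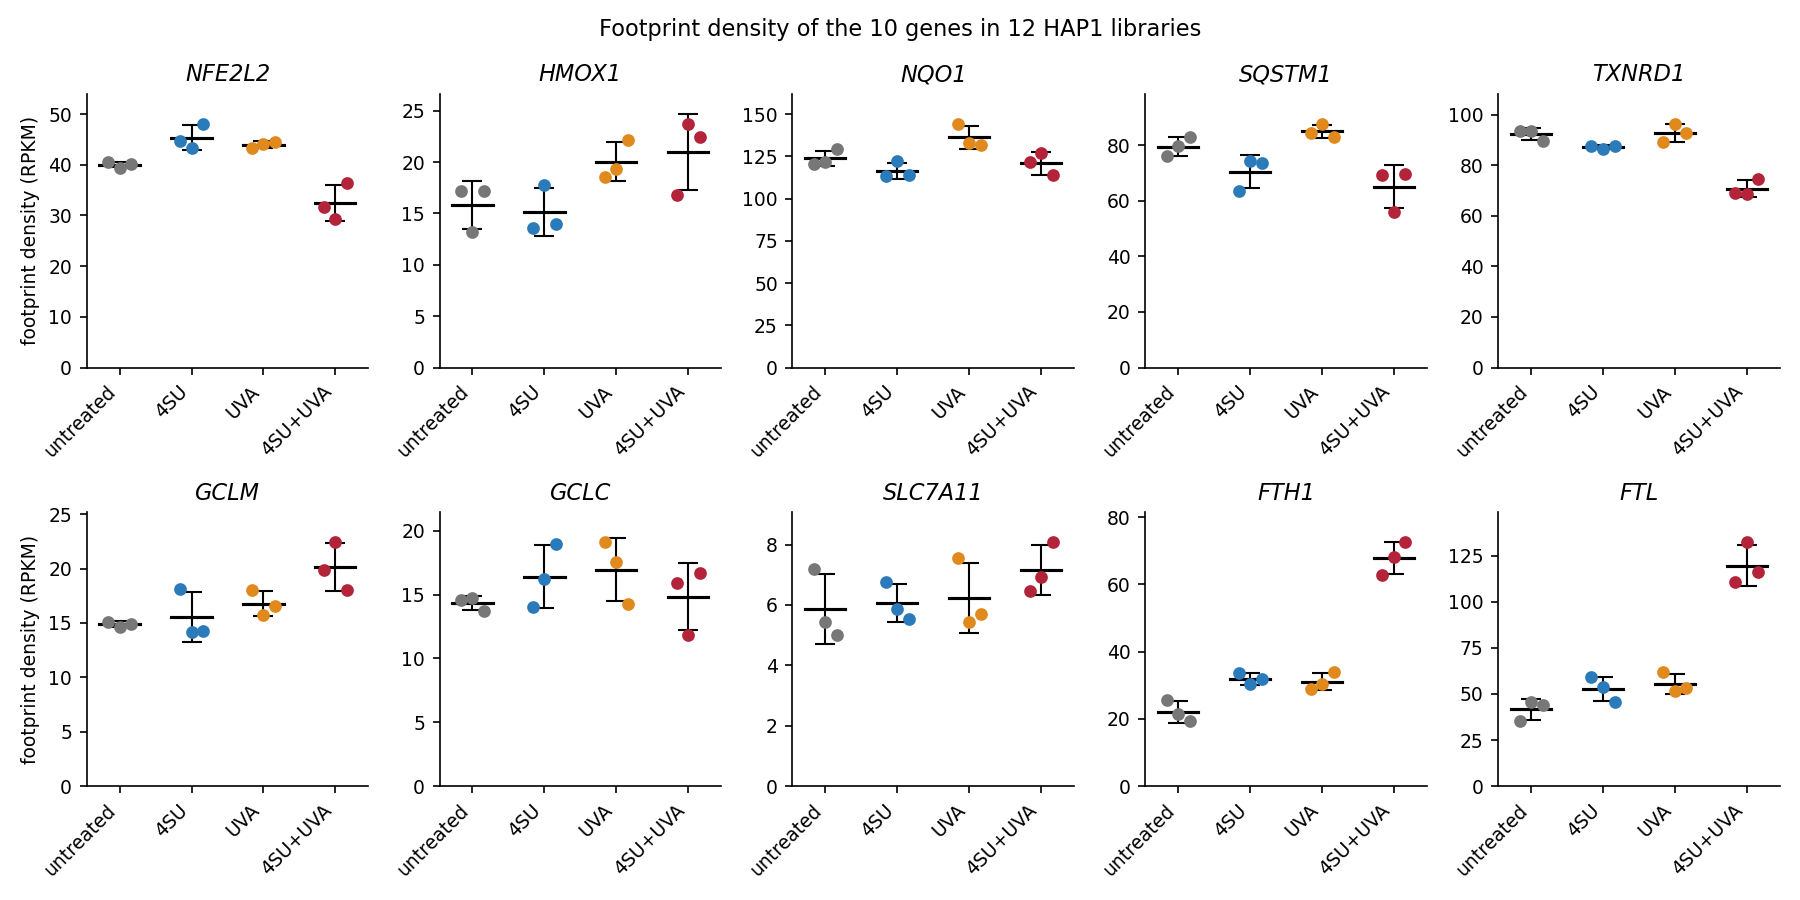
Footprint density (RPKM, linear axes from 0) of each gene in the 12 libraries. Points are single libraries, horizontal lines are means and bars are SD (n = 3 per group). The 4SU+UVA points of FTH1 (62.7 to 72.5 RPKM) and FTL (111 to 132 RPKM) lie above all others, and those of NFE2L2 and TXNRD1 below all others.

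FTH1 (ENSG00000167996.16, chr11:61964285-61967634) encodes the ferritin heavy chain, which oxidises iron as it enters the shell. Its density was 25.6, 21.4 and 19.3 RPKM in untreated replicates 1 to 3, 33.7, 30.2 and 31.7 RPKM with 4SU, 28.9, 30.4 and 33.9 RPKM with UVA, and 62.7, 68.3 and 72.5 RPKM with 4SU+UVA. Every 4SU+UVA library lay above every other library, the 4SU and UVA libraries overlapped, and all of those lay above the untreated ones. The mean was 22.1 ± 3.21 RPKM without treatment and reached 67.8 ± 4.88 RPKM when both were given (SD, n = 3 per group). The rise was 3.04-fold on the log2(RPKM + 0.5) scale used for all fold changes (log2 1.60, SE 0.10, limma adjusted p = 2.06e-08).

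FTL (ENSG00000087086.15, chr19:48965309-48966879) encodes the light chain, which helps the iron core to form, and its start carries the loop letters printed above. Its density was 35.2, 45.7 and 44.3 RPKM in untreated replicates 1 to 3, 59.0, 53.7 and 45.8 RPKM with 4SU, 61.9, 51.6 and 53.0 RPKM with UVA, and 111, 132 and 116 RPKM with 4SU+UVA. The order matched that of FTH1 at both ends, with 4SU+UVA above all and untreated below all, and the 4SU and UVA libraries again overlapped. From 41.7 ± 5.70 to 120 ± 11.2 RPKM (SD, n = 3 each), FTL rose 2.86-fold (log2 1.52, SE 0.12, limma adjusted p = 1.14e-07).

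The balance of the 2 chains stayed within the spread of the libraries. The ratio of FTL to FTH1 density, both per length, was 1.93 ± 0.492 in untreated cells, 1.66 ± 0.184 with 4SU, 1.80 ± 0.303 with UVA and 1.77 ± 0.168 with 4SU+UVA (SD, n = 3 each). The 4SU+UVA ratios of 1.60 to 1.94 lay inside the untreated range of 1.37 to 2.29. Both ferritin genes have many processed pseudogenes of near-identical sequence. How reads that match several copies were counted is not given in the sources used here, so the levels of both are uncertain in that respect.

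Footprints on the mRNA of NRF2 moved the other way. NFE2L2 (ENSG00000116044.16, chr2:177230303-177264727) lay at 40.5, 39.4 and 40.1 RPKM in untreated replicates 1 to 3, 44.6, 43.2 and 48.0 RPKM with 4SU, 43.2, 44.1 and 44.6 RPKM with UVA, and 31.6, 29.4 and 36.4 RPKM with 4SU+UVA. All 4SU+UVA libraries were below all others, and all libraries with a single agent were above the untreated ones. The fall from 40.0 ± 0.512 to 32.5 ± 3.60 RPKM (SD, n = 3 each) was 1.23-fold (log2 -0.30, SE 0.08, limma adjusted p = 0.0051). NRF2 is controlled largely through the stability of the protein, which footprints do not show.

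SQSTM1 (ENSG00000161011.20, chr5:179806393-179838078) encodes p62, an autophagy receptor that binds KEAP1 and is itself an NRF2 target. It lay at 76.0, 79.7 and 82.8 RPKM in untreated replicates 1 to 3, 63.5, 74.1 and 73.7 RPKM with 4SU, 84.3, 87.6 and 83.0 RPKM with UVA, and 69.4, 56.1 and 69.7 RPKM with 4SU+UVA. The UVA libraries were the highest, the untreated ones next without overlap, and the 4SU and 4SU+UVA libraries lowest and overlapping each other. It fell 1.23-fold with 4SU+UVA (log2 -0.29, SE 0.09, limma adjusted p = 0.0102). Without 4SU+UVA replicate 2, the shallowest library, the change was -0.19 (limma adjusted p = 0.0491). With all libraries thinned to the depth of that one it was -0.25 and did not pass (adjusted p = 0.0874).

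TXNRD1 (ENSG00000198431.17, chr12:104215779-104350307) encodes cytosolic thioredoxin reductase, the selenoprotein that keeps thioredoxin reduced. Its density was 93.5, 93.6 and 89.6 RPKM in untreated replicates 1 to 3, 87.7, 86.4 and 87.6 RPKM with 4SU, 89.3, 96.3 and 92.8 RPKM with UVA, and 68.8, 68.6 and 74.6 RPKM with 4SU+UVA. The 4SU+UVA libraries formed a separate low set, the 4SU libraries lay just under the untreated ones, and UVA and untreated overlapped. TXNRD1 fell 1.30-fold with 4SU+UVA (log2 -0.38, SE 0.06, limma adjusted p = 8.54e-05), the most precise of the 10 changes, on 512 to 2054 reads per library.

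HMOX1 (ENSG00000100292.18, chr22:35381096-35394207) encodes haem oxygenase 1, which breaks down haem and frees its iron. It lay at 17.2, 13.2 and 17.2 RPKM in untreated replicates 1 to 3, 13.5, 17.8 and 14.0 RPKM with 4SU, 18.6, 19.3 and 22.2 RPKM with UVA, and 16.8, 23.7 and 22.4 RPKM with 4SU+UVA. The UVA libraries all lay above the untreated ones, whereas 1 of the 3 4SU+UVA libraries lay within the untreated range. The rise with 4SU+UVA was 1.31-fold (log2 0.39, SE 0.15, limma adjusted p = 0.0335), and 10 of 24 alternative settings lost the call. It was lost without untreated replicate 2 (limma adjusted p = 0.161), without 4SU+UVA replicate 2 (adjusted p = 0.133) and without 4SU+UVA replicate 3 (adjusted p = 0.104).

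NQO1 (ENSG00000181019.13, chr16:69709401-69726560) encodes the quinone reductase that serves as a standard readout of NRF2 activity, and by group mean it had the highest density of the 10 genes throughout, although FTL came up to it with 4SU+UVA. Its means were 124 ± 4.65 RPKM in untreated cells, 116 ± 4.88 RPKM with 4SU, 136 ± 6.90 RPKM with UVA and 121 ± 6.72 RPKM with 4SU+UVA (SD, n = 3 each). The UVA libraries lay above those of every other group, and the untreated, 4SU+UVA and 4SU libraries, in falling order of their means, overlapped from each to the next. With 4SU+UVA the log2 change was -0.03 (95% interval -0.17 to 0.10, limma adjusted p = 0.666). An increase above 0.10 on the log2 scale lies outside that interval with the deposited scaling.

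Of the genes of glutathione synthesis, GCLM passed the test with 4SU+UVA and GCLC and SLC7A11 did not. GCLM (ENSG00000023909.10, chr1:93885199-93909430) encodes the modifier subunit of glutamate-cysteine ligase, the rate-limiting enzyme, and carries the core printed above. It lay at 15.1, 14.6 and 14.9 RPKM in untreated replicates 1 to 3, 18.2, 14.2 and 14.2 RPKM with 4SU, 18.0, 15.7 and 16.6 RPKM with UVA, and 19.9, 22.4 and 18.0 RPKM with 4SU+UVA. The 4SU+UVA libraries lay above all untreated ones but met the highest 4SU and UVA library. GCLM rose 1.33-fold (log2 0.42, SE 0.11, limma adjusted p = 0.00493), and with each library centred on its median the change was 0.25 and did not pass (adjusted p = 0.0647).

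GCLC (ENSG00000001084.13, chr6:53497341-53545101), the catalytic subunit of the same enzyme, did not pass in any comparison. Its group means were 14.3 ± 0.561 RPKM untreated, 16.4 ± 2.48 RPKM with 4SU, 16.96 ± 2.46 RPKM with UVA and 14.8 ± 2.61 RPKM with 4SU+UVA (SD, n = 3 each), and neighbours in order of the means overlapped. The interval of its log2 change with 4SU+UVA ran from -0.27 to 0.34. The ratio of GCLM to GCLC density was 1.04 ± 0.0494 without treatment, against 1.41 ± 0.429 after the combination (SD, n = 3 per group). The lowest 4SU+UVA ratio, 1.08, lay under the highest untreated one, 1.09.

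SLC7A11 (ENSG00000151012.13, chr4:138164097-138242349) encodes the cystine transporter subunit that supplies cysteine for glutathione. It had the lowest density of the 10 genes, 5.87 ± 1.15 RPKM in untreated cells, 6.05 ± 0.630 RPKM with 4SU, 6.23 ± 1.16 RPKM with UVA and 7.16 ± 0.823 RPKM with 4SU+UVA (SD, n = 3 each). That rank is per length, and its length of 9645 nt was the longest of the 10. In reads over all libraries (3065) it stood above HMOX1 (1409), FTH1 (1526), GCLC (1915), GCLM (2560) and FTL (2843). It stood below NFE2L2, NQO1, SQSTM1 and TXNRD1. The libraries of neighbouring groups overlapped and none of its 6 tests passed. Its log2 change with 4SU+UVA was 0.28 (95% interval -0.06 to 0.61, limma adjusted p = 0.144). Without untreated replicate 1, its highest untreated library at 7.18 RPKM, the change was 0.42 and passed (adjusted p = 0.0418).

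**Figure D2:**
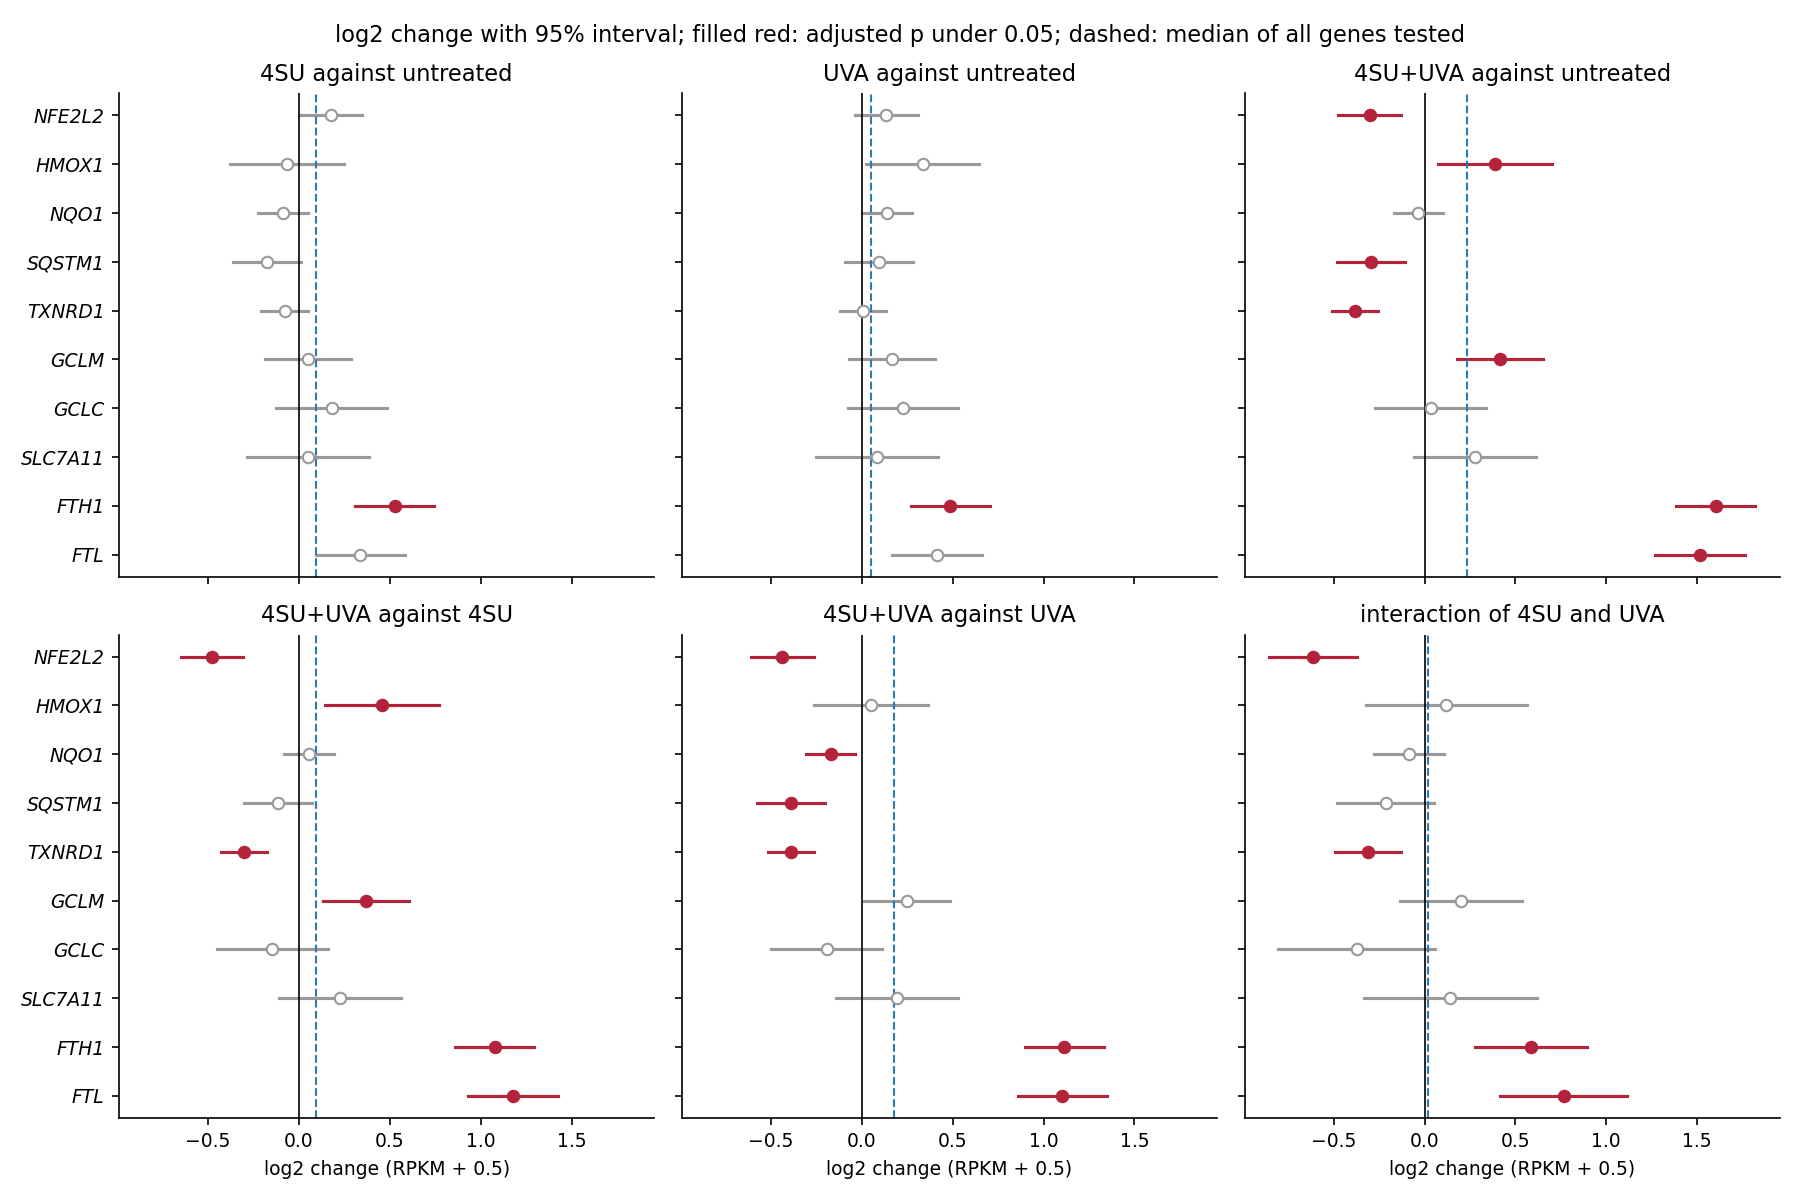
log2 change of each gene (points) with its 95% interval (bars) in the 6 comparisons, from 1 limma fit over 12 libraries. Filled red points passed at adjusted p under 0.05, open grey points did not, and the dashed line is the median of the 11510 genes tested. FTH1 (1.60) and FTL (1.52) stand apart in 4SU+UVA against untreated, and NFE2L2 lies below 0 in all comparisons that contrast 4SU+UVA with another group.

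UVA alone passed the test for FTH1 and for none of the other 9 genes. FTH1 rose 1.40-fold (log2 0.49, SE 0.10, limma adjusted p = 0.0407), where 0.278% of all genes rose, 0.374% fell and 0.652% passed in either direction. That call is close to the threshold. It was lost in 18 of 24 alternative settings, whose adjusted p ran from 0.0101 to 0.398 while the log2 change ran from 0.40 to 0.60. The libraries whose removal ended it were untreated replicates 2 and 3, UVA replicates 1 to 3, 4SU replicates 2 and 3, and 4SU+UVA replicates 1 and 2. With the replicate number as a block it was also lost (adjusted p = 0.0759).

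The log2 changes with UVA ran from 0.01 (TXNRD1) to 0.49 over the 10 genes, with a median of 0.15 against 0.05 over all genes. FTL stood at 0.41 (SE 0.12, limma adjusted p = 0.209) and HMOX1 at 0.34 (SE 0.15, adjusted p = 0.546). The libraries of the 2 groups did not overlap for 7 of the 10 genes, against 16.8% of all genes. TXNRD1 turned to -0.07 and SLC7A11 to -0.0001508 when each library was centred on its median. Quantile normalisation and removal of the length and abundance trend also turned TXNRD1.

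4SU alone also raised FTH1 and passed for no other gene. The rise was 1.44-fold (log2 0.53, SE 0.10, limma adjusted p = 0.00479), where 11.3% of all genes rose, 3.12% fell and 14.4% passed in either direction. FTL stood at 0.34 (SE 0.12, adjusted p = 0.0639), although its 4SU libraries lay just above the untreated ones, and it passed without 4SU replicate 3 (0.44, adjusted p = 0.0216). The libraries did not overlap for 5 of the 10 genes, against 35.3% of all genes. With each library centred on its median, NQO1 (-0.21), SQSTM1 (-0.30) and TXNRD1 (-0.21) passed as lower and the count was 1 higher and 3 lower; over all genes 640 were then higher and 1080 lower in place of 1295 and 359. With all libraries thinned to the depth of the shallowest, FTH1 lost its call (0.33, adjusted p = 0.225) and FTL passed (adjusted p = 0.0374).

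Light in cells that carried 4SU, the comparison of 4SU+UVA with 4SU, raised 4 of the 10 genes and lowered 2, where 25% of all genes rose and 19% fell, 44% together. Under quantile normalisation the balance over all genes turned, to 2360 higher and 2599 lower from 2877 and 2185. The libraries did not overlap for 4 of the 10, against 51% of all genes. FTL rose 2.26-fold (log2 1.18, SE 0.12, limma adjusted p = 2.02e-06) and FTH1 2.11-fold (log2 1.08, SE 0.10, adjusted p = 1.5e-06). NFE2L2 fell 1.39-fold (log2 -0.48, SE 0.08, adjusted p = 0.000272) and TXNRD1 1.23-fold (log2 -0.30, SE 0.06, adjusted p = 0.000925). HMOX1 rose by 0.46 (adjusted p = 0.0207) and GCLM by 0.37 (adjusted p = 0.0147). HMOX1 lost its call without 4SU replicate 1 or 3 or 4SU+UVA replicate 2 or 3 (adjusted p = 0.0694 to 0.0895), with the trend removed (0.29, adjusted p = 0.139) and under voom (0.38, adjusted p = 0.0505). TXNRD1 turned to 0.14 with the trend removed (adjusted p = 0.0718). GCLM lost it without 4SU replicate 2 or 3 or 4SU+UVA replicate 2 (adjusted p = 0.0596 to 0.0655).

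The effect of 4SU in irradiated cells, 4SU+UVA against UVA, raised 2 and lowered 4 of the 10 genes, where 34.7% of all genes rose and 19.8% fell, 54.4% together. The libraries did not overlap for 6 of the 10, against 59.4% of all genes. FTH1 rose 2.17-fold (log2 1.12, SE 0.10, limma adjusted p = 6.34e-07) and FTL 2.15-fold (log2 1.10, SE 0.12, adjusted p = 2.3e-06). NFE2L2 fell by 0.44, SQSTM1 by 0.39, TXNRD1 by 0.39 and NQO1 by 0.17 on the log2 scale (adjusted p = 0.000402, 0.00183, 7.93e-05 and 0.034). With the length and abundance trend removed, TXNRD1 turned to 0.15 and passed as higher (adjusted p = 0.0441). The NQO1 call was lost in 9 of 24 settings, among them without UVA replicate 1 or 2 and without 4SU+UVA replicate 1 or 3 (adjusted p = 0.0513 to 0.141). HMOX1 did not pass, at 0.05 (SE 0.15, adjusted p = 0.78). The comparisons with untreated cells and those with 4SU+UVA share libraries, so their values stand side by side and are not independent.

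Whether the combined change differed from the sum of the single ones was tested as an interaction term, on the log2 scale. Both ferritin chains exceeded the sum, and NFE2L2 and TXNRD1 lay below it. It passed for 4 of the 10 genes, 2 above and 2 below the sum, where 10.7% of all genes lay above and 14.1% below, 24.8% together. With median centring 1435 genes lay above and 1409 below, in place of 1233 and 1624. For FTL the single log2 changes summed to 0.75 and the combined change was 1.52, an interaction of 0.77 (SE 0.16, limma adjusted p = 0.0034). For FTH1 they summed to 1.01 against 1.60, an interaction of 0.59 (SE 0.14, adjusted p = 0.0082).

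NFE2L2 changed sign between the sum and the combination. Its single changes summed to 0.31, the combined change was -0.30, and the interaction was -0.61 (SE 0.11, limma adjusted p = 0.00135). TXNRD1 had single changes that summed to -0.07 and a combined change of -0.38, an interaction of -0.31 (SE 0.08, adjusted p = 0.0145). The TXNRD1 interaction turned to 0.16 with the trend removed and did not pass (adjusted p = 0.2). It was also lost with quantile normalisation (-0.24, adjusted p = 0.0506) and with thinning (-0.24, adjusted p = 0.123). GCLC had an interaction of -0.37 with a wide interval (-0.81 to 0.06, adjusted p = 0.197). The other genes, HMOX1, NQO1, SQSTM1, GCLM and SLC7A11, lay between -0.21 and 0.20 and did not pass.

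**Figure D3:**
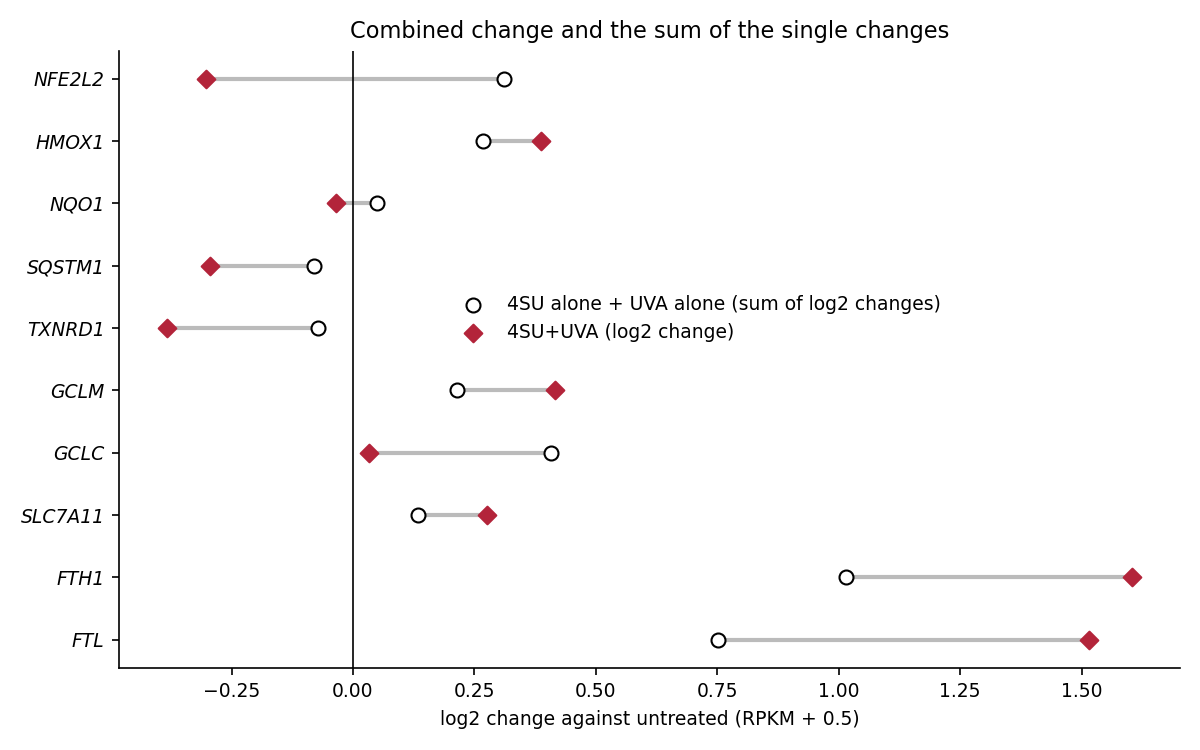
Sum of the log2 changes with 4SU alone and UVA alone (open circles) and log2 change with 4SU+UVA (red diamonds), each against untreated cells, for the 10 genes. The diamonds of FTH1 (1.60) and FTL (1.52) lie right of their circles (1.01 and 0.75), and that of NFE2L2 (-0.30) lies left of its circle (0.31).

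Transcript length and abundance moved with these changes over the whole table, so each gene was set beside genes of its kind. The tested genes were cut into 5 equal classes of length, crossed with 5 of mean density, after the values had been seen. FTH1 and FTL have transcripts of 825 and 871 nt, and their classes of short genes had medians of 0.40 (485 genes) and 0.28 (979 genes) in 4SU+UVA against untreated, below their own 1.60 and 1.52. TXNRD1, 3930 nt and abundant, changed by -0.38 where the median of its 248 class genes was -0.54. NFE2L2 and SQSTM1 shared a class of 398 genes with a median of -0.20, against -0.30 and -0.29 of their own. NQO1 shared its class with FTL and lay at -0.03, under that median of 0.28, and GCLM lay at 0.42 where its class stood at 0.05. For the interaction, the class medians were -0.49 for TXNRD1, -0.26 for NFE2L2, 0.17 for FTH1 and 0.18 for FTL. The interactions of the genes themselves were -0.31, -0.61, 0.59 and 0.77 in that order. TXNRD1, FTH1 and FTL thus lay above their class medians and NFE2L2 below. The part of length and abundance in these changes was not tested beyond the values given here.

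When a smooth trend on length and abundance was removed from each library, FTH1 rose by 1.19 and FTL by 1.18 (limma adjusted p = 6.77e-07 and 1.47e-06). GCLM kept its call at 0.35 (adjusted p = 0.0143), and SLC7A11 passed at 0.39 (adjusted p = 0.0423). NFE2L2 and SQSTM1 lost theirs at -0.19 and -0.16 (adjusted p = 0.0516 and 0.12), and HMOX1 lost its call at 0.08 (adjusted p = 0.672). TXNRD1 turned to 0.14 (adjusted p = 0.0662), and NQO1 passed as lower at -0.20 (adjusted p = 0.0204). The fall of TXNRD1 therefore holds on the deposited scale and not relative to genes of like length and abundance. The interaction of NFE2L2 still passed in this setting (log2 -0.42, adjusted p = 0.0151), as did that of FTL (0.58, adjusted p = 0.0183), while FTH1 lost it (0.37, adjusted p = 0.0823) and that of TXNRD1 changed sign.

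**Figure D4:**
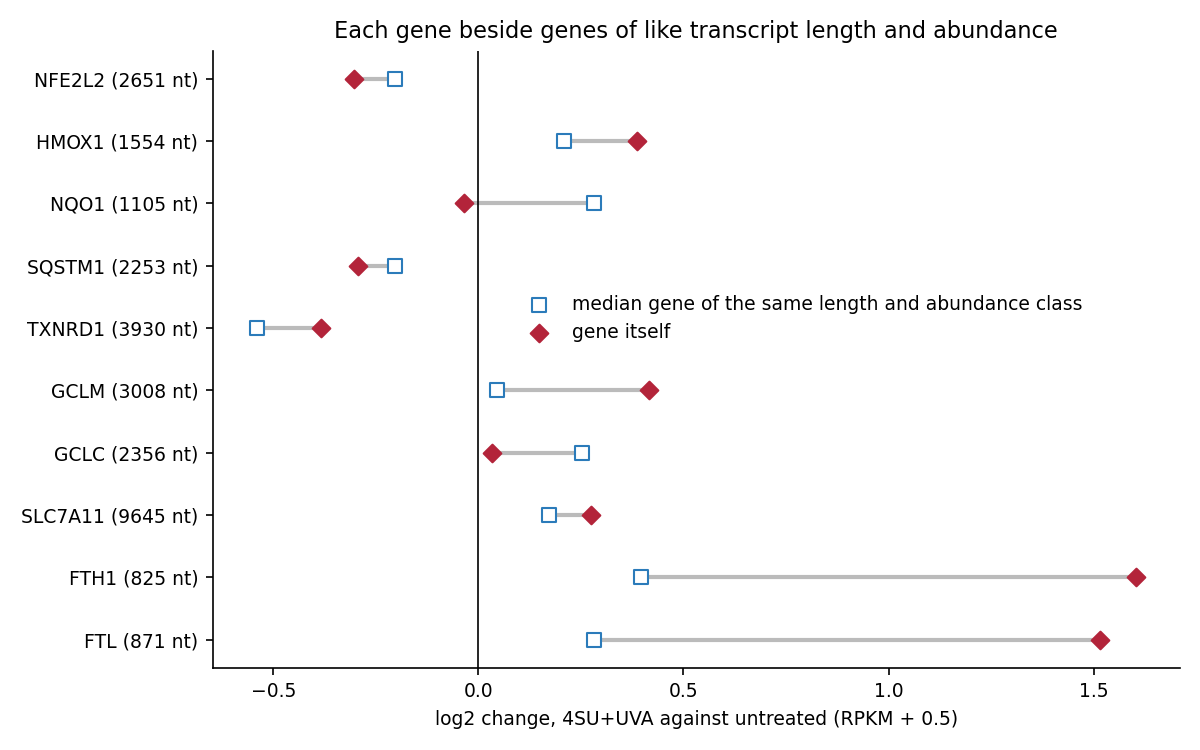
log2 change in 4SU+UVA against untreated for each gene (red diamonds) and for the median gene of its length and abundance class (open squares), with transcript lengths in nt. FTH1 and FTL lie more than 1 log2 unit above their class medians, and TXNRD1 (-0.38) lies above its class median (-0.54).

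The scale itself matters for small changes. The median gene moved by 0.23 in 4SU+UVA against untreated, and by 0.06 once each library was centred on its median, where 3107 genes were higher and 2888 lower in place of 4674 and 2122. Of the 10 genes 2 were then higher (FTH1 1.43, FTL 1.35) and 4 lower (NFE2L2 -0.47, SQSTM1 -0.46, TXNRD1 -0.55, NQO1 -0.20), since HMOX1 and GCLM did not pass. GCLC turned from 0.03 to -0.14 and passed on neither scale.

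**Figure D5:**
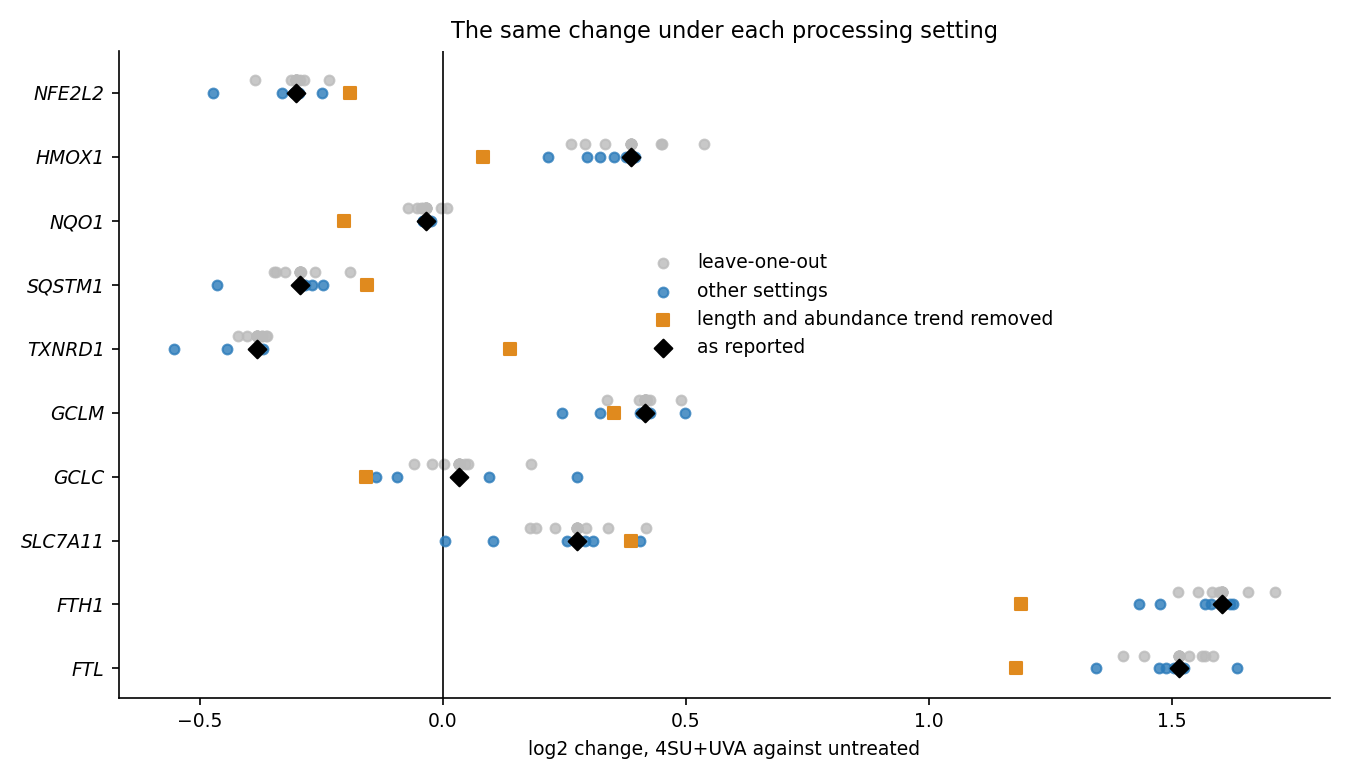
log2 change in 4SU+UVA against untreated under each processing setting: as reported (black diamonds), with 1 library left out (grey), with the length and abundance trend removed (orange squares) and under the other settings (blue). FTH1 (1.19 to 1.71) and FTL (1.18 to 1.63) stay far right of 0 in all of them, and TXNRD1 crosses 0 only where the trend is removed.

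By level, the 10 genes spanned from 6.33 RPKM (SLC7A11) to 124 RPKM (NQO1) as means over the 12 libraries. In untreated cells FTH1, at 22.1 RPKM, stood below NFE2L2, at 40.0 RPKM, and FTL, at 41.7 RPKM, just above it. FTH1 rested there on 80 to 93 reads per library. The ranks of both ferritin genes carry the uncertainty about reads that match several copies. With 4SU+UVA FTH1 (67.8 RPKM) reached the level of SQSTM1 (65.0 RPKM) and TXNRD1 (70.7 RPKM), and FTL (120 RPKM) that of NQO1 (121 RPKM). FTH1 had the widest range of group means among the 10 genes. Over the 12 libraries its pattern was most like that of ENSG00000168591.16 (Pearson r = 0.979 on the log2 scale), and 395 of the 8130 other genes with a mean of at least 5 RPKM had r over 0.9. For FTL the nearest was ENSG00000168002.12 (r = 0.979), and 478 genes had r over 0.9. These correlations describe 4 groups of libraries and carry no p, and the table pairs those identifiers with no symbols.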

How the data were processed

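Ribosome footprints of 12 HAP1 libraries were used. The authors deposited 1 table of RPKM values with Ensembl gene and transcript identifiers, per the file headers. The submitters' processing notes name STAR 2.7.10a and, per the labels, the build hg38. How reads were counted and filtered, and on which annotation, is not given in the sources used here. All 10 genes were named from the list that chose them, and 0 of the 19580 identifiers matched the symbols at hand. Other pathway genes and markers of other cell types were therefore not analysed here. The members and lists were chosen with earlier results of these data known.

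The steps between low RPKM values gave each library total, each transcript length and then the reads (100% of positive values whole within 0.001 reads, as the search requires). No molecular identifiers are described, so counts are of PCR reads. Differences in log2(RPKM + 0.5) were tested by limma 3.58.1 (lmFit and eBayes, trend on; R 4.3.3), with 4 group means over 12 libraries and 8 residual degrees of freedom. All were two-sided, and p-values were adjusted by Benjamini-Hochberg over the 11510 genes in each comparison and a threshold of 0.05. The fit was tested on simulated data. All 10 members were named by rule, and the genes most like FTH1, the member with the widest range, and FTL were found by Pearson r. Alternatives were other pseudocounts, filters, scalings and variance models, removal of a loess trend (span 0.3) on length and abundance, voom on recovered reads, a replicate block, leaving out each library, fitting only the groups compared and, added after the values were seen, thinning to 1899854 reads. Same-numbered replicates did not deviate together over all genes (r of -0.0457 to 0.0679 over 18 pairs), and the libraries were treated as unpaired. The labels do not say whether the numbers pair cultures, and a low correlation that includes counting noise cannot exclude it.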

Additional observations from a re-analysis of the deposited data

Results flagged for a closer look

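The response to UVA differed between cells with and without 4SU for 4 of the 10 genes, by the interaction term of the limma fit. The interaction was 0.77 for FTL (adjusted p = 0.0034) and 0.59 for FTH1 (adjusted p = 0.0082), -0.61 for NFE2L2 (adjusted p = 0.00135) and -0.31 for TXNRD1 (adjusted p = 0.0145). Over all genes 24.8% passed this test. With the length and abundance trend removed, TXNRD1 turned to 0.16 (limma adjusted p = 0.2) and FTH1 lost its call (0.37, adjusted p = 0.0823). TXNRD1 also did not pass with quantile normalisation (adjusted p = 0.0506) or thinning (adjusted p = 0.123). FTL and NFE2L2 kept their calls in all alternatives. Groups of 3 libraries are too small to single out a deviating library.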

How the results depend on the processing

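For the 10 genes in 6 comparisons, 24 alternatives gave 1430 values, of which 1325 kept direction and side of the threshold, 54 lost the call, 13 gained one and 38 changed sign (34 of these passed in neither setting). FTH1 and FTL kept their calls in all alternatives of the 3 comparisons of 4SU+UVA with another group. Unless stated otherwise, the cause of a change was not tested.

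Of the 10 genes, 1 passed for UVA against untreated as reported and 0 with no filter, median centring, quantile normalisation, the trend removed, no variance trend, voom, only the 2 groups compared, or thinning. Leaving out 1 library gave 0 to 1. With the replicate block the count was 0, and the block changed no other count. For 4SU against untreated the count was 1, with 4 under median centring and 1 to 2 without single libraries. The interaction count of 4 became 2 with the trend removed. Over all genes, the 75 that passed for UVA became 45 with no filter, 42 under quantile normalisation, 45 with the trend removed and 27 with no variance trend. The 1654 for 4SU became 878 with thinning and 726 to 872 without untreated replicate 2 or 3 or 4SU replicate 1 or 2, and the 2857 for the interaction became 1847 with thinning. The split of higher against lower genes became 3011 to 2910 (4SU+UVA against untreated, 4674 to 2122 as reported), 678 to 497 (4SU), 2360 to 2599 (4SU+UVA against 4SU, 2877 to 2185) and 2900 to 2820 (4SU+UVA against UVA, 3989 to 2278) under quantile normalisation, and 19 to 48 (UVA, 32 to 43) and 1435 to 1409 (interaction, 1233 to 1624) under median centring.

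Sign changes under median centring were GCLC at -0.14 (4SU+UVA against untreated), GCLM at -0.077 and SLC7A11 at -0.074 (4SU), TXNRD1 at -0.073 and SLC7A11 at -0.0001508 (UVA) and HMOX1 at -0.037 (4SU+UVA against UVA). Under quantile normalisation they were GCLC at -0.094 (4SU+UVA against untreated), GCLM at -0.058 and SLC7A11 at -0.11 (4SU). They were also TXNRD1 at -0.029 (UVA) and SLC7A11 at -0.0047 (4SU+UVA against UVA). With the trend removed they were TXNRD1 at 0.14 and GCLC at -0.16 (4SU+UVA against untreated), GCLM at -0.046 (4SU), TXNRD1 at -0.016 (UVA), NQO1 at -0.069, SQSTM1 at 0.037 and TXNRD1 at 0.14 (4SU+UVA against 4SU), HMOX1 at -0.18 and TXNRD1 at 0.15 (4SU+UVA against UVA, where TXNRD1 passed as higher) and TXNRD1 at 0.16 (interaction). Voom gave HMOX1 at -0.034 (4SU+UVA against UVA), and thinning gave TXNRD1 at -0.046 (UVA) and NQO1 at 0.12 (interaction).

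Leaving out single libraries turned NQO1 (-0.071 to 0.0088) and GCLC (-0.059 to 0.18) in 4SU+UVA against untreated, HMOX1 (-0.19 to 0.0030), GCLM (-0.065 to 0.11) and SLC7A11 (-0.045 to 0.19) in 4SU against untreated, TXNRD1 (-0.018 to 0.035) and SLC7A11 (-0.056 to 0.22) in UVA against untreated, GCLC (-0.25 to 0.0011) in 4SU+UVA against 4SU and HMOX1 (-0.042 to 0.20) in 4SU+UVA against UVA. The lowest read counts in a single library were those of GCLC (53), HMOX1 (70) and FTH1 (80). GCLC and HMOX1 had the widest standard errors after SLC7A11, which held at least 127 reads per library. FTH1 held 1526 reads in all against 1915 of GCLC, and its SE between groups was 0.10.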
